A study of Mus musculus with 3 samples.

Results

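The genes for 10 immune surface molecules were followed in blood stem and progenitor cells of the mouse fetal liver: Cd47, Cd80, Cd86, Cd96, Cd200, Cd200r1, Btla, Tigit, Ptprcap and Alcam. They were chosen by name as receptors and ligands of immune cells, and they are 10 of the 38205 gene identifiers in each table. RNA sequencing had been done on LSK cells (negative for lineage markers, positive for Sca1 and c-Kit) of C57Bl/6 embryos at E14.5. A library each stood for wild type (WT), for embryos hemizygous for a DNMT3B7 transgene and for homozygous ones. DNMT3B7 is a shortened form of DNMT3B. The full-length DNMT3B is an enzyme that methylates DNA. The cells of 4 to 5 embryos were pooled per library; the 3 libraries have no replicates, no test between genotypes was possible, and no p-value is given. The promoter of the transgene is not given in the sources used here.

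Proteins of this kind sit on the cell surface and set whether an immune cell that meets another cell attacks it, helps it or leaves it alone. CD47 on a cell binds SIRP alpha on macrophages and restrains their phagocytosis, and CD200 restrains myeloid cells through its receptor CD200R1. CD80 and CD86 bind CD28 and CTLA4 on T cells. BTLA, TIGIT and CD96 are receptors of lymphoid cells that bind HVEM (BTLA) or nectin-like proteins (TIGIT and CD96). ALCAM is an adhesion molecule that binds CD6, and PTPRCAP associates with the phosphatase CD45.

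Because the study added a transgene for a shortened form of a DNA methyltransferase, the CpG content of the promoters was looked at first. Windows of 300 bases, from 250 bases before to 50 bases after the annotated start, were taken from RefSeq (GRCm38.p6) and were found for 7 of the 10 genes. Cd86, Cd200r1 and Ptprcap had no entry. Below are the windows richest in CpG, those of Cd47 and Alcam, followed by those of Cd200, whose ratio between the homozygous and the WT library was the largest of the 10, and of Btla. The first of the 2 RefSeq windows of Cd47 is shown. They lie at chr16:49855404-49855703 on the plus strand (Cd47), chr16:52453032-52453331 on the minus strand (Alcam), chr16:45409004-45409303 on the minus strand (Cd200) and chr16:45224087-45224386 on the plus strand (Btla). Capitals mark the CpG dinucleotides.
Cd47: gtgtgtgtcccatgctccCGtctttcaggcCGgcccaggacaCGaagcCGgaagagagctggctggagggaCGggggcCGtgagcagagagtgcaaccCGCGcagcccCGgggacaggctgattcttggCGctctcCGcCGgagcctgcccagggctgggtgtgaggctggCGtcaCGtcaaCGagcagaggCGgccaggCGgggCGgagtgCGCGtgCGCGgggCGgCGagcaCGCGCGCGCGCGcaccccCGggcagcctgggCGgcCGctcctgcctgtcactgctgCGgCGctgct
Alcam: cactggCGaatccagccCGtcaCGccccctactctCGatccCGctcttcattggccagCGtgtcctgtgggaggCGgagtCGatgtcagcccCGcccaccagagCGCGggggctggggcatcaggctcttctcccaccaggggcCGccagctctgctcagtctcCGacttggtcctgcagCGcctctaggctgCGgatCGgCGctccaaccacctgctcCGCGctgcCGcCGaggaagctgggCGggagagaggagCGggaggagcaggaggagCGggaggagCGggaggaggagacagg
Cd200: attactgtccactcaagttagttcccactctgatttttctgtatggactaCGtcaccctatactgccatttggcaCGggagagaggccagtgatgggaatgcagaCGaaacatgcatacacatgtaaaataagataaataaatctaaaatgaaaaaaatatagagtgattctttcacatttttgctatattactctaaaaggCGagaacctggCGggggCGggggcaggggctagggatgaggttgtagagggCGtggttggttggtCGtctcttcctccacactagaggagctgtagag
Btla: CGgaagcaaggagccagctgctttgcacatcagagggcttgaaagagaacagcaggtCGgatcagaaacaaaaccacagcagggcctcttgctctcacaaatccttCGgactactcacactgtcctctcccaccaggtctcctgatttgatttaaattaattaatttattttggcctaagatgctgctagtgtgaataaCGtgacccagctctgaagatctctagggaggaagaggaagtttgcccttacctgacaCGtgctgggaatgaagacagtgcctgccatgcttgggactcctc

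The window of Cd47 held 35 CpG dinucleotides, more than 93.0% of all 32851 RefSeq windows, and that of Alcam held 25, more than 81.6%. The other windows were near or below the median of 7, with 8 for Cd200, 5 for Btla, 5 for Tigit, 4 for Cd96 and 3 for Cd80. CpG content did not order the genes by level: Cd47 and Alcam, the richest, stood at 314 and 3.79 in the WT library, and Btla, with few, stood at 34.4. Of the motifs searched on both strands, the GC box GGGCGG was in the windows of Cd47, Cd200 and Alcam and in 35.7% of all windows. AGGAAG, a core of ETS factor sites, was in Cd200, Btla and Alcam and in 35.4% of all. TATAAA was in Cd80 and Cd96 and in 13.6% of all, and CCAAT was in Alcam and in 37.4% of all. These are matches of letters only, and methylation itself was not measured.

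**Figure D1:**
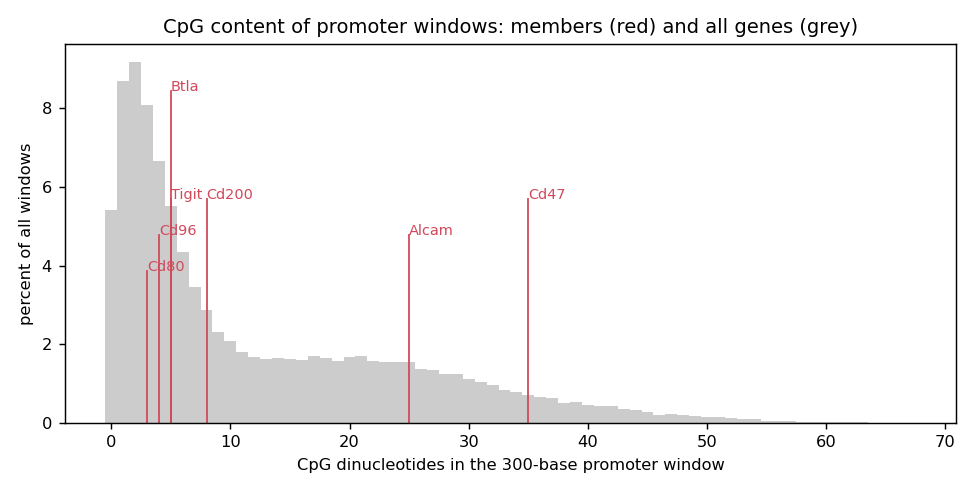
CpG dinucleotides in each 300-base promoter window (x axis) against the percent of all windows (y axis); grey bars are all 32851 windows and red lines the 7 genes with a window. Cd47 (35) and Alcam (25) lie in the right tail, and the other 5 genes lie between 3 and 8.

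Levels are deposited FPKM (fragments per length of transcript and per depth of the library) divided by 4245, called values here, since the deposited sums are far above what the unit allows. They are per length of transcript, so genes can be set beside each other. Values could be read only for part of the genome: in 10 segments at the starts of chromosomes and on the mitochondrial genome, 1441 genes in all, 825 of them on chromosome 16. Of the constitutive genes, such as those of the ribosome and proteasome, 14 of 14 in these segments were high and 13 of 267 outside; their median values were 688 and 0.048. All 10 genes followed here lie inside, Ptprcap on chromosome 19 and the other 9 on chromosome 16. Ly6a and Kit, which encode the markers of the sort, lie outside, as do Ptprc and Cd34, so the gate could not be checked. Of the other listed cell types, the 4 of 6 erythroid markers that could be read summed to 3987, 4012 and 3285 in WT, hemizygous and homozygous cells, the 2 of 5 megakaryocyte markers to 22.0, 20.8 and 34.9, and Ahsg, the 1 of 4 hepatocyte markers, stood at 3.70, 3.49 and 3.67; 0 of 4 mast cell and basophil markers could be read. Genes within the megakaryocyte and erythroid sums went different ways. Gp5 was at 16.5, 17.7 and 30.1 and Gp1bb at 5.50, 3.09 and 4.76, in the same order. Car1 (64.7, 65.0 and 76.7) was highest in the homozygous library, whereas Car2, Tfrc and Cpox were lowest there. The low values implied about 3026720, 2995710 and 2304340 fragments on the listed genes in the WT, hemizygous and homozygous library. Intervals below are 95% exact intervals from estimated fragments; they hold counting error alone and leave out the spread between embryos and between library preparations. In these bulk samples, fewer cells of a type and less RNA per cell cannot be told apart.

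All 10 genes reached a value of 1 in the WT library, as did 63.5% of the 1441 genes. Ptprcap was the highest at 1185, then Cd47 at 314, Cd86 at 81.3, Cd200r1 at 34.9 and Btla at 34.4. Cd200 (5.78), Cd96 (4.99), Cd80 (4.46), Alcam (3.79) and Tigit (2.15) formed a low group, well under the median of 63.9 for the nuclear genes at 1 or above. Ptprcap, Cd47, Cd86 and the next gene, Cd200r1, differed from each other beyond counting error, and so did Btla from Cd200 (5.95-fold, interval 3.30 to 11.1). Cd200r1 and Btla did not (1.01-fold, interval 0.835 to 1.23), nor did any neighbours in the WT order from Cd200 down to Tigit. In homozygous cells the order of the low genes was Cd80, Alcam, Cd96, Cd200 and Tigit, with a step beyond counting error between Alcam and Cd96 (1.88-fold, interval 1.02 to 3.45), and Cd200r1 stood above Btla (1.30-fold, 1.06 to 1.60). The upper 5 and the lower 5 were the same genes in all 3 libraries.

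**Figure D2:**
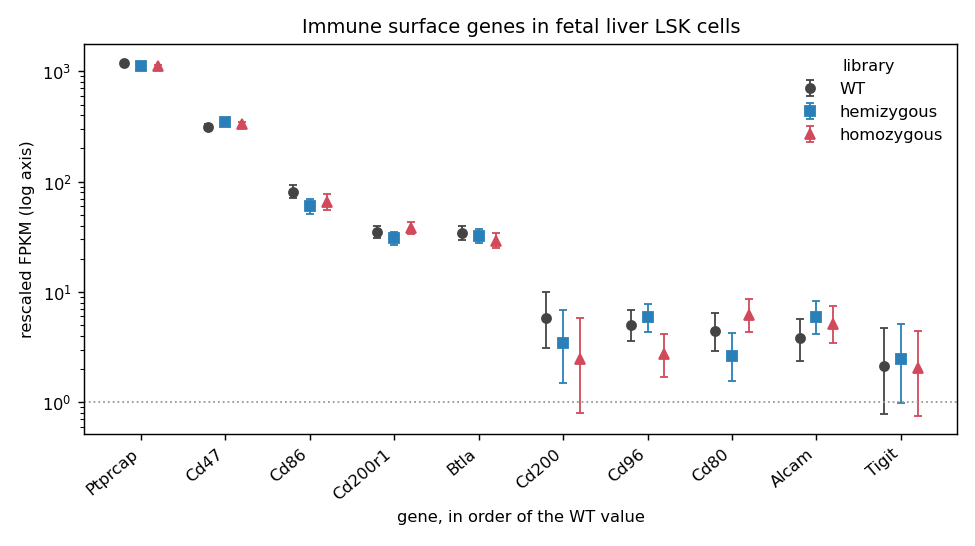
Rescaled FPKM (log axis) of the 10 genes in order of their WT value (x axis) in the WT, hemizygous and homozygous libraries; points are single libraries and bars 95% exact counting intervals. Ptprcap stays between 1110.3 and 1185 and Cd47 between 314 and 348, whereas the 5 lowest genes lie below 7 with wide intervals.

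None of the 10 genes differed by 2-fold on the scale of value + 1 (a log2 ratio of at least 1 in size, the size rule used here) in any of the 3 comparisons. Of all genes measured, 4.45% passed this rule between homozygous and WT cells, with 2.23% higher and 2.23% lower. Between hemizygous and WT cells 2.87% passed, 1.91% higher and 0.955% lower, and between homozygous and hemizygous cells 4.53%, 1.68% higher and 2.84% lower. With so few genes past the rule, a count of 0 among 10 is near the background. With each library brought to the same sum the median log2 ratio of all genes shifted to 0.35, 0.17 and 0.20 in these comparisons, and the genes past the rule became 45 higher and 10 lower, 23 and 6, and 30 and 15, against 21 and 21, 18 and 9, and 16 and 27 as deposited. Mitochondrial genes made up much of these sums, 1147650 with them and 499187 without in WT, 858655 and 477995 in homozygous cells. Without them in the sums the medians were 0.02, 0.05 and -0.02, and the ratios of the 10 genes kept their signs. As deposited, the log2 ratios of the 10 genes for homozygous versus WT ran from -0.96 (Cd200) to 0.40 (Cd80) with a median of -0.07, against a median of -0.04 over the 943 genes measured. For hemizygous versus WT they ran from -0.60 (Cd200) to 0.53 (Alcam) with a median of -0.09, against 0.02 over 942 genes. For homozygous versus hemizygous they ran from -0.88 (Cd96) to 0.98 (Cd80) with a median of -0.11, against -0.05 over 950 genes. The first and the second comparison share the WT library, and each transgenic library enters the third as well. On the scale of value + 1, 8, 9 and 8 of the 10 lay within 1.5-fold in these comparisons, in that order, against 87.7%, 91.8% and 88.5% of all genes measured.

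**Figure D3:**
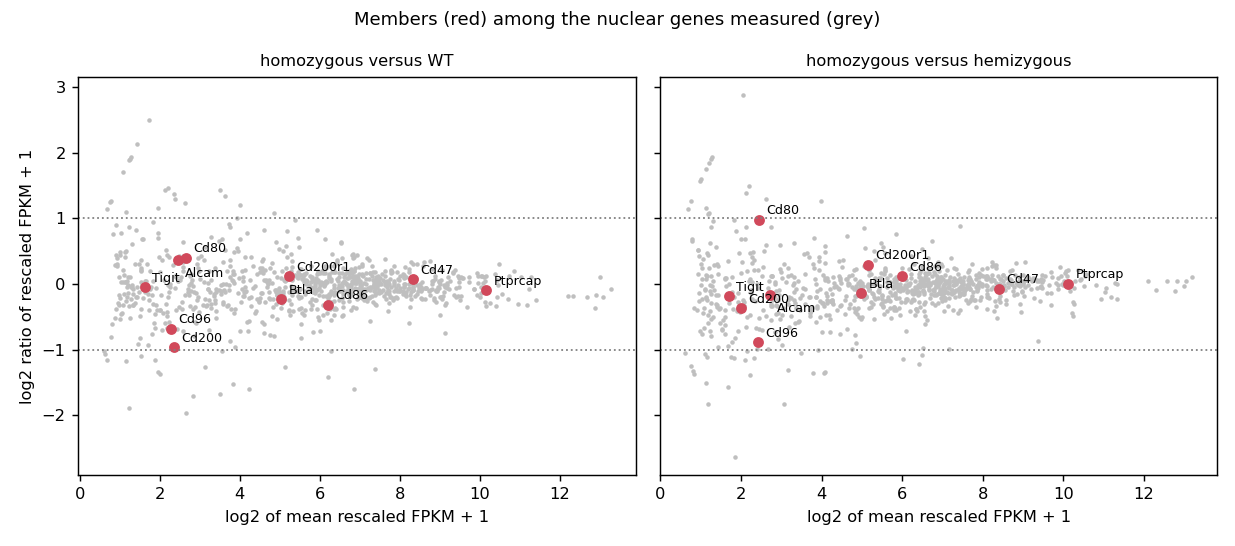
Log2 ratio of rescaled FPKM + 1 (y axis) against the log2 of the mean rescaled FPKM + 1 (x axis) for homozygous versus WT (left) and homozygous versus hemizygous (right); grey points are the nuclear genes measured, red points the 10 genes, and dotted lines the size rule. The red points all lie between the lines, with Cd200 (-0.96) nearest on the left and Cd80 (0.98) nearest on the right.

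Counting error is narrower than the size rule for well-covered genes, so the plain ratio of values was also set against its counting interval. For homozygous versus WT the interval lay below 1 for 3 of the 10, Cd86, Cd96 and Ptprcap, against 18.8% of all genes, and above 1 for 0, against 13.4%. For hemizygous versus WT it lay above 1 for Cd47 alone (16.6% of all genes) and below 1 for Cd86 and Ptprcap (14.3%). For homozygous versus hemizygous it lay above 1 for Cd80 and Cd200r1 (9.16%) and below 1 for Cd96 (20%). With about 3 in 10 of all genes outside counting error in each comparison (32.1%, 30.9% and 29.2%), a count of 3 among 10 is near the background. All these counts take the median transcript length. With the longest, the homozygous versus WT interval also lay above 1 for Cd47 and Alcam and below 1 for Cd200 and Btla. For hemizygous versus WT this added Alcam above and Cd80 and Cd200 below, and for homozygous versus hemizygous Cd47 below. The share of all genes was not counted at that length, so these have no background.

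**Figure D4:**
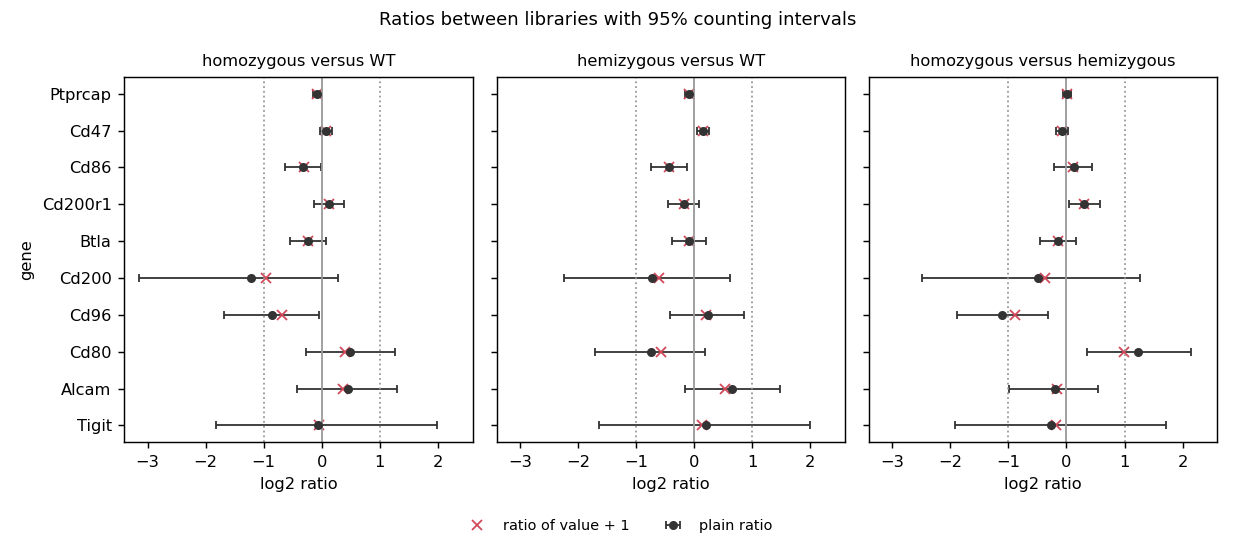
Log2 ratios of the 10 genes (y axis, in order of the WT value) in the 3 comparisons; black points are plain ratios with 95% exact counting intervals, red crosses the ratios of value + 1, and dotted lines a 2-fold difference. Intervals are narrow for Ptprcap and Cd47 and widest for Cd200 and Tigit, and every red cross lies inside the dotted lines.

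Among the ligands, Cd47 was the most abundant. Its values were 314 in WT, 348 in hemizygous and 331 in homozygous cells, from an estimated 1383, 1607 and 1382 fragments. The hemizygous library was 1.11-fold above WT (interval 1.03 to 1.19) and the homozygous library 1.05-fold (0.977 to 1.14); the homozygous and hemizygous libraries did not differ beyond counting error (0.951, interval 0.884 to 1.02). With each library brought to the same sum, the log2 ratios to WT rose from 0.15 to 0.30 in hemizygous and from 0.08 to 0.49 in homozygous cells, and that of homozygous versus hemizygous turned from -0.07 to 0.19. With mitochondrial genes left out of the sum these log2 ratios were 0.18, 0.14 and -0.04, in the same order. With the longest transcript in place of the median length, which gives more fragments, the interval of homozygous versus WT was 1.02 to 1.09 and also lay above 1. That of homozygous versus hemizygous was then 0.919 to 0.983 and lay below 1. A second row named Cd47, with the identifier ENSMUSG00000079488, had the status LOWDATA and was not used.

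Of the costimulatory ligands, Cd86 was the more abundant and Cd80 the more variable. Cd86 was at 81.3 in WT, 59.9 in hemizygous and 65.3 in homozygous cells, so both transgenic libraries were lower, although the homozygous log2 ratio turned to 0.10 with each library brought to the same sum. Without mitochondrial genes in the sum this log2 ratio was -0.25. The plain ratio to WT was 0.737 (interval 0.597 to 0.917) in the hemizygous and 0.803 (0.646 to 0.995) in the homozygous library. Cd80 was at 4.46, 2.65 and 6.22 in the same order, lowest in the hemizygous and highest in the homozygous library. Its plain ratio between the homozygous and the hemizygous library was 2.34 (1.28 to 4.44), from 35.7 and 16.8 estimated fragments, and the log2 ratio of value + 1 was 0.98, just inside the size rule. It passed the rule with a pseudocount of 0.1 (1.20), with median-ratio scaling (1.03) and with the libraries brought to the same sum with (1.21) or without (1.01) mitochondrial genes. Against WT the intervals of Cd80 included 1 in both transgenic libraries, 0.307 to 1.14 in the hemizygous and 0.830 to 2.41 in the homozygous; with the longest transcript the hemizygous interval was 0.373 to 0.935. CD86 is carried by dendritic cells, macrophages and B cells, and 0 of 5 listed macrophage and dendritic markers could be read. Of the 4 neutrophil markers 2 could be read. Cebpd stood at 42.2 in WT, 36.1 in hemizygous and 34.1 in homozygous cells, and Mmp8 at 3.41, 3.64 and 1.61, so that their sum (45.6, 39.7 and 35.8) was mostly that of Cebpd. The B lineage markers Igll1, Vpreb1 and Vpreb2, the 3 of 7 that could be read, summed to 517, 400.4 and 192, lowest in the homozygous library, whereas Cd86 had its lowest value in the hemizygous library, within counting error of the homozygous one (1.09, interval 0.862 to 1.36). A sort for cells without lineage markers is meant to remove mature blood cells of these types. The part of such cells, or of B lineage cells at an earlier stage, in the Cd86 values was not tested. Every partner of these ligands on the list used here, such as Cd28 and Ctla4, lay outside the segments that could be read, as did the other listed B7 and CD28 family genes.

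Cd200 was lower in both transgenic libraries, while its receptor gene Cd200r1 was lower in the hemizygous and higher in the homozygous library. Cd200 stood at 5.78 in WT, 3.48 in hemizygous and 2.47 in homozygous cells. The plain ratio of the homozygous to the WT library was 0.428 and the log2 ratio of value + 1 was -0.96, larger in size than those of 95.3% of the 943 genes measured; with a pseudocount of 0.1 it was -1.19 and passed the size rule. Low genes vary more: of the 155 genes whose higher value was between 2 and 10, 13.5% passed the size rule in this comparison. Its counting interval depended on the transcript length taken. The median length of its 11 annotated transcripts, 742 bases, gave 12.6 fragments in the WT library and an interval of 0.113 to 1.21, and the longest, 2347 bases, gave 50.1 fragments and 0.238 to 0.721. The hemizygous library had 0.602 of the WT value (interval 0.211 to 1.53, or 0.379 to 0.971 with the longest transcript). The sum of the 3 B lineage markers (517, 400.4 and 192) was lower in the same libraries, and all 3 were above 0 in every library. The lineage-negative sort is meant to remove mature B cells, and the stage of the cells that gave these 3 markers was not tested. The part of B lineage cells in the Cd200 values was not tested either.

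Cd200r1, which encodes the inhibitory receptor for CD200 on myeloid cells, was at 34.9 in WT, 30.8 in hemizygous and 38.0 in homozygous cells. The homozygous library was 1.23-fold above the hemizygous (interval 1.03 to 1.49), and against WT both intervals included 1 (0.731 to 1.06 for hemizygous, 0.908 to 1.31 for homozygous). The log2 ratios to WT, -0.17 and 0.12, became -0.02 and 0.53 with each library brought to the same sum. They were -0.14 and 0.18 with mitochondrial genes left out of the sum. The related receptor genes that stand beside Cd200r1 could be read as well. Cd200r3 was at 17.3, 20.3 and 21.2, Cd200r4 at 5.95, 5.22 and 8.39, and Cd200r2 at 0.719, 1.21 and 1.09. Cd200r4, like Cd200r1, was higher in the homozygous than in the hemizygous library (1.61-fold, interval 1.03 to 2.55). Of the 50-base stretches of the Cd200r1 transcripts, 1.16% also occur in other genes, chiefly Cd200r4, so few reads could be shared between them.

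The inhibitory receptor genes of lymphoid cells stood at different levels. Btla was at 34.4 in WT, 32.3 in hemizygous and 29.2 in homozygous cells, and its plain ratio of 0.849 for homozygous versus WT had an interval of 0.682 to 1.05, or of 0.735 to 0.983 with the longest transcript. Its log2 ratio, -0.23, turned to 0.18 with the libraries brought to the same sum, and was -0.17 with mitochondrial genes left out of it. The 3 B lineage markers summed to 517, 400.4 and 192, and the part of B lineage cells in the Btla values was not tested. Cd96 was at 4.99, 5.90 and 2.74, lowest in the homozygous library, from 39.9, 49.5 and 20.8 estimated fragments. It has a single annotated transcript, so these do not depend on the choice of length. The homozygous library had 0.549 of the WT value (interval 0.310 to 0.961) and 0.465 of the hemizygous value (0.270 to 0.805), with log2 ratios of value + 1 of -0.68 and -0.88; the latter was -1.08 with a pseudocount of 0.1 and then passed the size rule. Tigit was at 2.15, 2.46 and 2.04, which stood for 6.23, 7.49 and 5.62 fragments. Its counting interval for homozygous versus WT, 0.282 to 3.94, is so wide that a 2-fold difference was not detectable at this depth, and the interval of its WT value, 0.789 to 4.68, reached below a value of 1.

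Whether T cells or NK cells were present could not be read, since 0 of the 8 listed markers of these cells lay in the segments. Of the ligands of TIGIT and CD96 and other nectin genes, only Pvrl3 (nectin-3) could be read, at 3.93 in WT, 5.46 in hemizygous and 3.52 in homozygous cells. Its intervals included 1 in all 3 comparisons with the median length. For homozygous versus hemizygous the plain ratio was 0.645 (0.256 to 1.62, or 0.510 to 0.810 with the longest transcript). The BTLA partners, among them Tnfrsf14 (HVEM), lay outside the segments.

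Alcam was at 3.79 in WT, 5.92 in hemizygous and 5.15 in homozygous cells, higher in both transgenic libraries. The plain ratios to WT were 1.56 (interval 0.894 to 2.79) in the hemizygous and 1.36 (0.740 to 2.46) in the homozygous library, so neither was beyond counting error with the median length of its 7 transcripts. With the longest, 6036 bases, the intervals were 1.19 to 2.06 and 1.02 to 1.82. ALCAM is also carried by endothelial and stromal cells, and the vessel wall genes Col4a1 and Col4a2, the 2 of 7 listed markers of such cells that could be read, summed to 52.6, 68.1 and 99.3. The homozygous and hemizygous values of Alcam did not differ beyond counting error (0.870, interval 0.505 to 1.45), and their log2 ratio of -0.17 turned to 0.05 with the libraries brought to the same sum. This log2 ratio was -0.14 with mitochondrial genes left out of the sum. The part of vessel wall cells in the Alcam values was not tested.

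Ptprcap had the highest level of the 10 in every library, with 1185 in WT, 1110.3 in hemizygous and 1113 in homozygous cells. The hemizygous library had 0.937 of the WT value (interval 0.896 to 0.981) and the homozygous library 0.940 (0.897 to 0.984), but with each library brought to the same sum the log2 ratios turned to 0.06 and 0.33. With mitochondrial genes left out of the sum these log2 ratios were -0.06 and -0.03. The hemizygous and homozygous libraries did not differ from each other beyond counting error (1.00, interval 0.957 to 1.05). This level is uncertain: the gene overlaps exons of Rps6kb2 on the opposite strand and of Coro1b on the same strand, and 93.9% of its 50-base stretches occur in other genes, chiefly Rps6kb2. The strand setting of the counting is not given in the sources used here, so a read from the overlap can belong to either gene. Rps6kb2 was listed at 358, 308 and 236 and Coro1b at 1070.5, 1308 and 1086, in the order WT, hemizygous and homozygous. Of Cd80, Cd86, Cd96, Cd200 and Btla, 0% of stretches were shared, and of Cd47, Alcam and Tigit 0.722%, 0.112% and 4.37%.

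Of 50 listed partner, signalling and other immune receptor genes, 48 were in the tables and 12 could be read, all on chromosome 16. Of the 11 that reached a value of 1 in a comparison, 0 passed the size rule in any of the 3. Of all genes measured, 4.45%, 2.87% and 4.53% passed it, so a count of 0 among 11 is near the background. The cytokine receptor chains were the highest of them. Il10rb, a chain of the interleukin-10 receptor, was at 114 in WT, 117 in hemizygous and 95.2 in homozygous cells, and Ifngr2, a chain of the interferon gamma receptor, at 110.0, 86.4 and 79.1. Ifngr2 was 0.720 of WT in the homozygous library (interval 0.653 to 0.793), Ifnar2 0.848 (0.746 to 0.966) and Il10rb 0.838 (0.740 to 0.947). For these 3 of 11 the interval lay below 1, against 18.8% of all genes, and for 0 above 1, against 13.4%. For hemizygous versus WT it lay below 1 for 1 gene and above 1 for 0, against 14.3% and 16.6%. For homozygous versus hemizygous it lay below 1 for 3 and above 1 for 1, against 20% and 9.16%. These counts take the median transcript length. With the longest, the homozygous versus WT interval also lay above 1 for Cd200r3 (1.04 to 1.46). For hemizygous versus WT it then also lay above 1 for Pvrl3 and Ifnar1, and for homozygous versus hemizygous below 1 for Pvrl3 and Ifngr2. Il1rap, the accessory chain of the interleukin-1 receptor, was at 19.5, 20.4 and 21.8, and the cell adhesion genes Cxadr and Jam2 and the plasma cell receptor gene Tnfrsf17 stayed below 2 in every library.

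**Figure D5:**
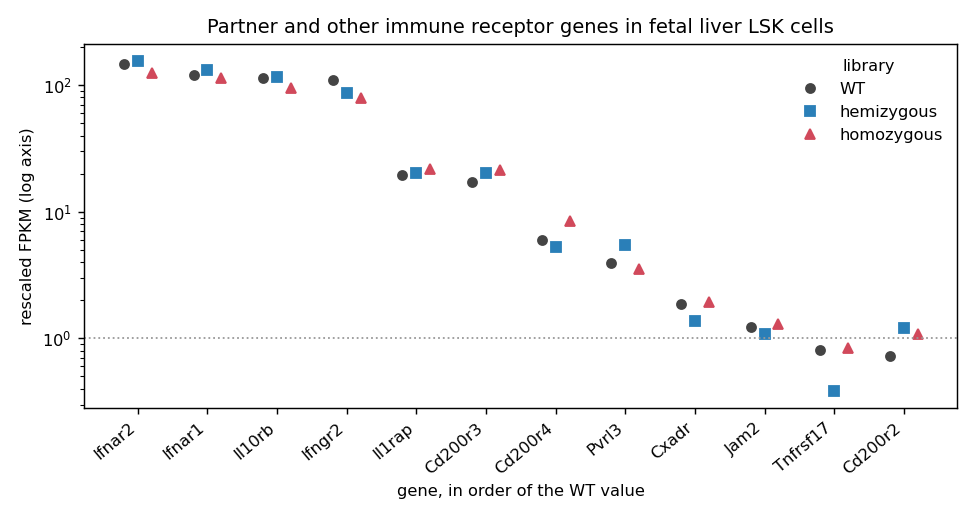
Rescaled FPKM (log axis) of the 12 listed partner and other immune receptor genes that could be read, in order of their WT value (x axis), in the 3 libraries; points are single libraries. Il10rb, Ifnar1, Ifnar2 and Ifngr2 lie near or above 80, Il1rap and Cd200r3 near 20, and the rest below 9.

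The genes nearest in pattern were sought over the 3 libraries by the distance between centred log2 values, among genes at 5 or more in each. Cd200 itself fell short of this cut, at 3.48 in hemizygous and 2.47 in homozygous cells. Its pattern is uncertain, since its homozygous versus WT interval with the median length, 0.113 to 1.21, included 1. Nearest to Cd200 were mt-Nd3, a mitochondrially encoded subunit of complex I (distance 0.083), Dexi (0.105) and mt-Co3, a subunit of cytochrome oxidase (0.183), all highest in the WT and lowest in the homozygous library. Dexi was at 57.8 in WT, 41.2 in hemizygous and 32.1 in homozygous cells. Nearest to Ptprcap were Cars2 (0.0101), Nudt16l1 (0.0117) and Gm10232 (0.0121), which were highest in the WT library. Over 3 points many genes lie close, and the distances describe these libraries only.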

How the data were processed

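RNA sequencing of pooled LSK cells gave 1 library per genotype. Each gene has an FPKM value and a status for that value, per the file headers, as deposited by the authors. The submitters' processing notes list TopHat2, Bowtie2 and Cufflinks and the genome build mm9. Which annotation and strand setting they used is not given in the sources used here. Rows with status OK were used, the highest per identifier, divided by 4245. GENCODE M21 (GRCm38) gave gene types, order and lengths for 36463 of 38205 identifiers.

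On each chromosome a break was fitted by maximum likelihood to how often protein-coding genes reached a deposited mean FPKM of 200000, and kept at a log likelihood gain of at least 12, a setting chosen after seeing the values. Genes before the breaks and mitochondrial genes were compared, without small RNA genes. The measure between libraries was the log2 of the ratio of value + 1 (pseudocount 1) where a value reached 1 in either library. That scale understates the change of low genes.

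Fragments were estimated from low values of genes with 1 transcript of 1000 to 10000 bases. FPKM times length less 200 bases was set against whole multiples of the value of 1 fragment. It lay within 0.05 of a whole multiple for 72.5%, 70.8% and 73.9% of low values in the WT, hemizygous and homozygous library. The value of 1 fragment was chosen in each library to make this share highest. The 10% by chance of a value fixed beforehand is therefore too low a background. Other genes took the median transcript length, so fragments are approximate; the longest transcript gave about 5688780, 5901190 and 4791420 in all. In WT cells about 7.26 fragments gave a value of 1 at a length of 2000 bases. Intervals of ratios are Clopper-Pearson and those of levels Poisson, both at 95%.

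The 10 genes, the partner and marker lists and the alternatives were chosen with earlier results of these data known. All 10 genes, every partner gene that could be read and the 3 nearest genes of 2 members are named. Of 56 listed cell type markers 14 could be read. The scripts were tested on simulated data. Python 3.11.15, numpy 2.4.6, pandas 2.3.3, scipy 1.17.1 and matplotlib 3.10.9 were used.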

Additional observations from a re-analysis of the deposited data

How the results depend on the processing

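With 1 library per genotype no replicate could be left out. No paired analysis was possible because each genotype has 1 library. Of the alternatives tried, the pseudocount and the scaling brought genes of the 10 past the size rule. With a pseudocount of 0.1, 1 gene passed for homozygous versus WT (Cd200, -1.19) and 2 for homozygous versus hemizygous (Cd80, 1.20, and Cd96, -1.08). In the latter comparison 1 gene, Cd80, passed under median-ratio scaling (1.03), with each library brought to the same sum (1.21) and to the same sum without mitochondrial genes (1.01). With each library brought to the same sum, the median log2 ratio of all genes moved to 0.35 for homozygous versus WT, 0.17 for hemizygous versus WT and 0.20 for homozygous versus hemizygous. The counts of genes past the rule became 45 higher and 10 lower, 23 and 6, and 30 and 15, against 21 and 21, 18 and 9, and 16 and 27. Under this scaling the ratios to WT in the homozygous library changed sign for Cd86 (0.10), Btla (0.18), Tigit (0.24) and Ptprcap (0.33), and in the hemizygous library for Btla (0.06) and Ptprcap (0.06). Between the homozygous and the hemizygous library it changed sign for Cd47 (0.19), Btla (0.11) and Alcam (0.05). With mitochondrial genes left out of the sum, none of these ratios changed sign. The medians of all genes were then 0.02, 0.05 and -0.02.

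The number of all genes past the rule, 42, 27 and 43 in the order above, was 60, 45 and 73 with a pseudocount of 0.1, 10, 4 and 9 with a pseudocount of 5, and 22, 8 and 19 with a minimum value of 5. On chromosome 16 alone it was 28, 14 and 26, from fewer genes tested. With breaks kept at a gain of 5, chosen after seeing the data, it was 64, 45 and 67. Summing rows and dropping the minimum changed no count. Of the 10 genes, 6 reached a value of 5 in the WT library. Of the recomputed ratios of these genes, 285 stayed within the counting interval, and the other 9 all came from scaling to the same sum. The minimum value, the chromosome 16 background and the breaks change only which genes are counted. The ratios under those settings are among the 285 and could not move. Nor could those under the sum of rows, since each of the 10 genes has a single row with status OK per library. The longest transcript moved the estimated fragments of 8 of the 10 genes beyond counting error. At the median length the depth limits Tigit, Cd200, Alcam, Cd80 and Cd96 most, each with fewer than 50 estimated fragments in every library. The longest transcript gave Alcam 89.2, 146 and 115 and Cd80 53.4, 33.3 and 70.7 fragments in the WT, hemizygous and homozygous library.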

Other observations

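A second row named Cd47 stood apart from the row used. Its identifier, ENSMUSG00000079488, is not in the GENCODE release used, and its status was LOWDATA in all 3 libraries. Its listed values were 318 (WT), 181 (hemizygous) and 139.7 (homozygous). On the log2 scale of value + 1 it differed from WT by -1.18 in homozygous and by -0.81 in hemizygous cells, while the row with status OK differed by 0.08 and 0.15. Without a length for this identifier no fragments were estimated, and the row enters no comparison.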
